A study of Mus musculus with 15 samples.

Results

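The genes described here are 10 listed p53 targets and cell-cycle inhibitors, Cdkn1a, Cdkn2a, Gdf15, Mdm2, Phlda3, Btg2, Ccng1, Bax, Trp53inp1 and Eda2r. They were followed through the liver and kidney of chronically injured mice and through ectopic liver grown from transplanted hepatocytes. They were chosen by name, with earlier results of these data known, each with the array probes whose RefSeq accession belongs to it. Of the 10, 9 were measured among the 15622 genes tested, while Eda2r was not well above background on any array. RNA came from 15 female FVB/N mouse samples on one-colour Agilent arrays, 1 array per sample. The hosts were wild-type recipients, 7 to 9 weeks old at the start, given monocrotaline (MCT, a plant alkaloid that injures the liver) into the peritoneum at 70 mg/kg in 2 doses 2 weeks apart. At 2 weeks after the last dose they received 1000000 hepatocytes under the kidney capsule, from donors of 8 to 20 weeks that carried a human α1-antitrypsin (hA1AT) transgene. At days 250 to 300, when the hosts were 48 to 55 weeks old, 4 host livers, 4 host kidneys and 4 neo-livers (the liver tissue microdissected from the kidney) were taken. The 3 control livers came from normal mice of 20 weeks. Host tissues and control livers therefore differ in age, in MCT and in transplantation together, and these cannot be told apart. Neo-liver is counted below among the host tissues and host samples because it grew in the hosts. Its hepatocytes, however, came from the donors and were given after the last MCT dose. Neo-liver therefore differs from control liver and from host liver in the donor transgene and in site as well, which cannot be told apart either. Host kidney differs from control liver in organ as well, and no control kidney was measured.

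The p53 protein is a transcription factor that cells stabilise after DNA damage and other stress. Its targets halt the cell cycle (Cdkn1a, Btg2), promote cell death (Bax, Trp53inp1, Eda2r), restrain survival signalling (Phlda3), are secreted (Gdf15) or act back on p53 itself (Mdm2, Ccng1). Cdkn2a is not a p53 target of this kind: its transcripts encode a cyclin-dependent kinase inhibitor and ARF, a protein that blocks Mdm2, and its RNA accumulates in senescent cells, which have left the cell cycle for good but stay alive.

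The promoters in question are shown because p53 binds DNA at pairs of a 10-base half-site, and 4 of the members carried an exact match to that half-site close to a start. Windows of 300 bases, 250 before and 50 after each start, were taken from RefSeq on mouse build GRCm38.p6. The table held 9 of the 10 members in 12 windows, and Trp53inp1 had no entry. The p53 half-site decamer, searched by its consensus, which reads alike on both strands, occurred in 2745 of 32851 windows, or 8.36%. Capitals mark the matches.
Cdkn1a, upstream start, chr17:29090729-29091028, plus strand: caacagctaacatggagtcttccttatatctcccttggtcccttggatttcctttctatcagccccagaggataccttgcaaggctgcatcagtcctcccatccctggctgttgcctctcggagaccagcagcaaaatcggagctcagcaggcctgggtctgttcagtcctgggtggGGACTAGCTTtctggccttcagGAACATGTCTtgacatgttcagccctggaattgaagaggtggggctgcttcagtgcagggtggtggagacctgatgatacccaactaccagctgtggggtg
Cdkn1a, downstream start, chr17:29093519-29093818, plus strand: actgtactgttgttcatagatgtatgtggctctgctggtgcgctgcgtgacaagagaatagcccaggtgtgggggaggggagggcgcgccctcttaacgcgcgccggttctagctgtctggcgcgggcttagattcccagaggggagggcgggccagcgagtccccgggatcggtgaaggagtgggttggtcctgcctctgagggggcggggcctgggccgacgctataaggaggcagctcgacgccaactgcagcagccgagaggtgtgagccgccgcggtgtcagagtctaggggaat
Mdm2, chr10:117710709-117711008, minus strand: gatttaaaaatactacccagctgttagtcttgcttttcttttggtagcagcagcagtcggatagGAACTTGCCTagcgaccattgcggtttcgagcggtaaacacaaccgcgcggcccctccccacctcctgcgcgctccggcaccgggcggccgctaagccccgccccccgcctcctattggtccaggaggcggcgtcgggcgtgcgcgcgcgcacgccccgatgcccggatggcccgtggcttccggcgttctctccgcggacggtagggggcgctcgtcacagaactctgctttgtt
Ccng1, chr11:40755237-40755536, minus strand: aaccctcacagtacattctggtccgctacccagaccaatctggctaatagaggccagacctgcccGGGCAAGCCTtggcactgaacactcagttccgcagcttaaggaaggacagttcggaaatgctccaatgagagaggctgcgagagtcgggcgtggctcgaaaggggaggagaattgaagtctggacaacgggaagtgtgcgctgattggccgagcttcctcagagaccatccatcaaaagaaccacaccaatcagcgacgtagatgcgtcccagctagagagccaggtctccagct
Bax, chr7:45466849-45467148, minus strand: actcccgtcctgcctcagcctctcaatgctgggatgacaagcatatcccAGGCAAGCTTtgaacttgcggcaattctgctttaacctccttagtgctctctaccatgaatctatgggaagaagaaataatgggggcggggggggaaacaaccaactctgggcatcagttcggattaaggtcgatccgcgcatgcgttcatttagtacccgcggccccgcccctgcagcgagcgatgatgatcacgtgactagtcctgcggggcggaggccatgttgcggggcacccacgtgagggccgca

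The upstream start of Cdkn1a held 2 matches, which began at -73 and -51 from the start. The 10 bases right after the second of them matched the half-site at 9 of 10 positions, so that a near-complete pair lay there. The match of Ccng1 at -185 also had a neighbouring decamer with 9 of 10 positions, and such a pair of an exact and a near-exact decamer was found in 29 of the 32851 windows (0.0883%). The matches of Mdm2 at -186 and of Bax at -201 had neighbours matching at no more than 5 and 7 of 10 positions. The downstream start of Cdkn1a, 2790 bases away, held 0 matches. A match is a description of these letters and says nothing of whether p53 was bound in these tissues.

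Levels are log2 of the background-subtracted signal minus the 75th percentile of the array, so 0 is that percentile and 1 unit is a 2-fold change. The 75th percentile ranged from 286.8 to 873.9 signal units over the 15 arrays, and 46.43% to 67.64% of probes were well above background. Replicate arrays of a group correlated at 0.9718 to 0.9948 across probes. Hepatocyte markers marked the tissues as labelled, with a summed linear level (array 75th percentile = 1) over 10 markers of 8650 to 9260 in control liver, 8200 to 12400 in host liver, 4890 to 7510 in neo-liver and 24.5 to 45.4 in host kidney. Over 20 kidney epithelium markers the sum was 2210 to 3220 in host kidney, 436 to 1230 in neo-liver, 119 to 139 in control liver and 36.8 to 87.3 in host liver. Neo-liver arrays held 19 to 20 of these 20 markers above background, control livers 8 to 9 and host livers 6 to 10. Most of the control liver sum came from Pax2 and Aqp1, with mean log2 levels of 6.41 and 5.47 there. Pax2 was low in host kidney (-3.54), so this sum is not a measure of kidney tissue in control liver. The kidney share of a neo-liver array, estimated from 18 of the markers, was 20.4%, 47.2%, 21.1% and 34.3% in replicates 1 to 4 (mean 30.8% ± 12.7, SD, n = 4). In host liver it was at most 0.016%. Neo-liver and control liver arrays shared 1 slide, host kidney arrays lay on another, and host liver arrays on 2 more. Of the comparisons, only neo-liver against control liver therefore lies within a slide. Differences in all the others, those among host liver, host kidney and neo-liver included, cannot be told apart from slide.

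In host liver 8 of the 9 measured genes were higher than in control liver and 0 were lower, where 13.4% of all genes tested were higher and 11.2% lower (limma, Benjamini-Hochberg adjusted p under 0.05, as for every call here). Cdkn2a, Gdf15, Btg2, Phlda3 and Cdkn1a each rose by over 3 on the log2 scale, and Ccng1 was the gene not called. In neo-liver 7 were higher and 1, Mdm2, lower than in control liver, against 20.4% and 29.8% of all genes. Between neo-liver and host liver 1 gene was higher in neo-liver (Ccng1) and 3 were lower (Mdm2, Cdkn2a and Bax). Of all genes 17.1% and 31.5% were, so both counts are near the background. The median log2 difference there was -0.58 for the 9 genes and -0.21 over all genes tested. Host kidney against control liver gave 6 higher and 1 lower (Trp53inp1), with 30.3% and 36.3% of all genes. Neo-liver against host kidney gave 3 higher and 2 lower, with 23.2% and 29.5%, again near the background. Host liver against host kidney gave 5 higher and 1 lower, with 39.6% and 31.2%. The 3 comparisons with control liver share its 3 arrays. Because these genes and the lists below were chosen with earlier results of these data known, their counts are descriptions and not independent support. At an unadjusted p under 0.05 the count lower in host liver than in control liver was also 0. The median log2 difference of the 9 genes was 3.03 in host liver and 2.34 in neo-liver against control liver, beside 0.08 and -0.15 over all genes tested, and it was the same with Cdkn2a at the lower bound given below.

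**Figure D1:**
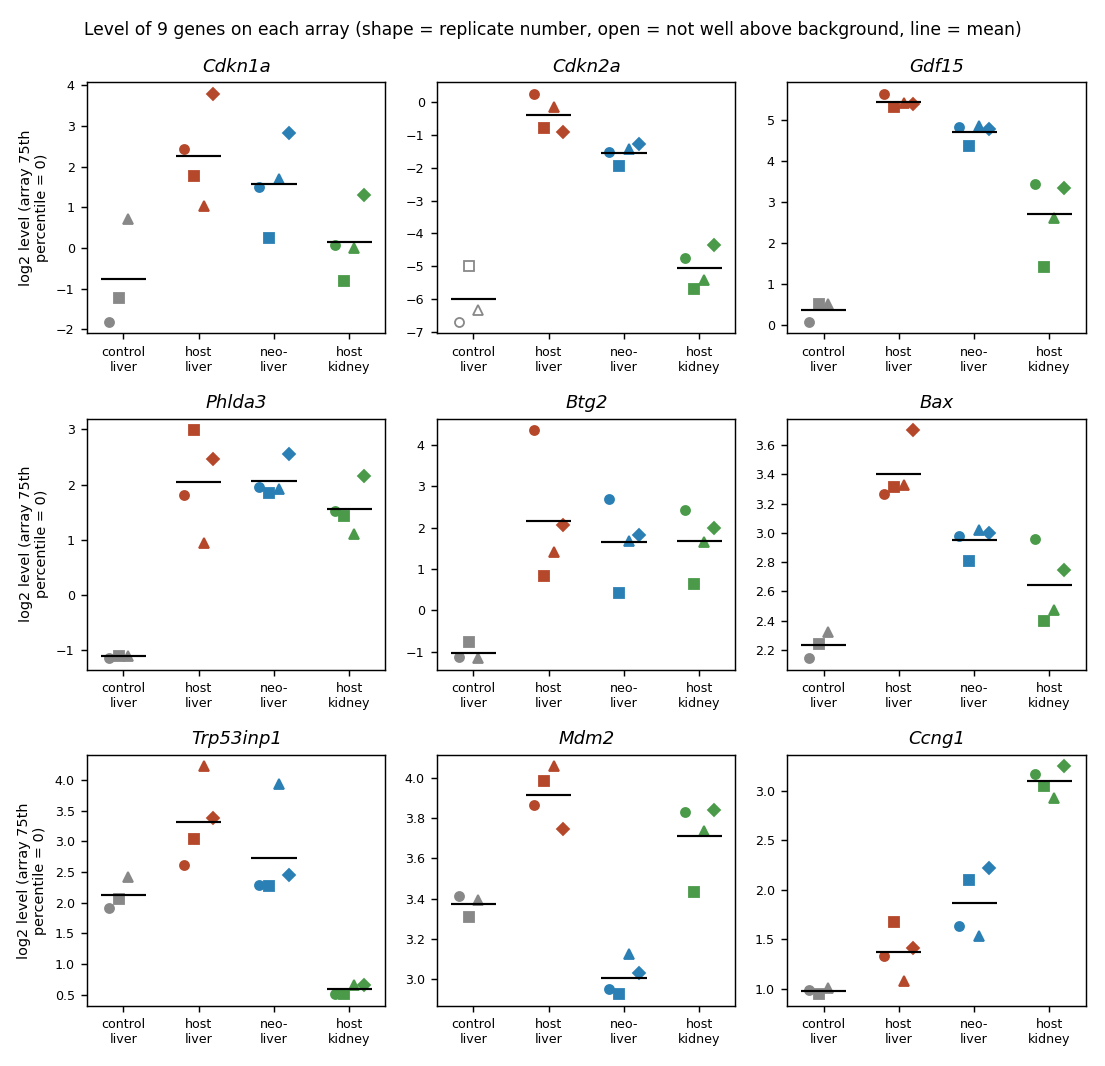
Log2 level of each measured gene on each array (vertical axis, array 75th percentile = 0) in the 4 groups, with the shape giving the replicate number, an open symbol a probe not well above background and the line the group mean. Control livers lie below every host liver in each panel, and the share of all genes for which they do was not counted. Mdm2 is lowest in neo-liver, and Ccng1 is highest in host kidney.

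Cdkn1a, which encodes p21, an inhibitor of cyclin-dependent kinases and the classic p53-induced brake on the cell cycle, was higher in host liver and in neo-liver than in control liver. Its probe read -1.82, -1.23 and 0.72 in the 3 control livers and 2.44, 1.77, 1.03 and 3.79 in host livers 1 to 4. Neo-livers read 1.5, 0.25, 1.70 and 2.82, and host kidneys 0.06, -0.81, 0.00 and 1.31. Control liver 3 stood above the other control livers and above neo-liver 2, so these groups overlapped, whereas every host liver lay above every control liver. The difference was 3.03 ± 0.77 (SE) for host liver (8.18-fold, adjusted p = 0.0126) and 2.34 ± 0.77 for neo-liver (5.07-fold, adjusted p = 0.0214). Host liver also exceeded host kidney by 2.12 ± 0.71 (adjusted p = 0.0164). Host kidney against control liver (0.91, 95% interval -0.74 to 2.57) and neo-liver against host liver (-0.69, -2.22 to 0.84) did not pass. Neo-liver against host kidney (1.43 ± 0.71, adjusted p = 0.107) passed once the mouse was taken into account (adjusted p = 0.00451 with the replicate number as a fixed block and 0.0272 as a random one), without neo-liver 2 (0.0464) and with the kidney share subtracted (1.90, adjusted p = 0.0411). The rise in host liver was not called without control liver 1 (adjusted p = 0.0663) or 2 (0.0538), and that in neo-liver not without control liver 1 (0.103), control liver 2 (0.0745) or neo-liver 4 (0.0619).

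A second Cdkn1a probe, annotated to another transcript of the gene, was dim. It was above background on 4 of 4 neo-livers, 4 of 4 host kidneys, 1 of 4 host livers and 0 of 3 control livers. Against control liver it therefore gives bounds for neo-liver and host kidney. It was at least 1.76-fold higher in neo-liver (adjusted p = 0.00396, in a fit over all 20391 probes) and at least 1.5-fold higher in host kidney (adjusted p = 0.00498). Host liver, with 1 of 4 arrays above background, has no bound. Its fitted difference from control liver was 1.79 (adjusted p = 0.0286). The probes differed in sign for host liver against host kidney, at 2.12 for the first and -0.20 (adjusted p = 0.738) for the second, and for neo-liver against host liver, at -0.69 and 0.43, neither called. The values of the second probe for host liver rest on 3 arrays below background, so its order of the host tissues is not settled. With the mean of both probes, host liver against host kidney was 0.96 (adjusted p = 0.114) and host kidney against control liver 1.45 (adjusted p = 0.0353). The difference between host liver and host kidney was also not called without host kidney 2 (adjusted p = 0.0522) or host liver 4 (0.0569). The probe sequences were not used here, so which of the 2 starts shown above each probe reads was not determined.

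**Figure D2:**
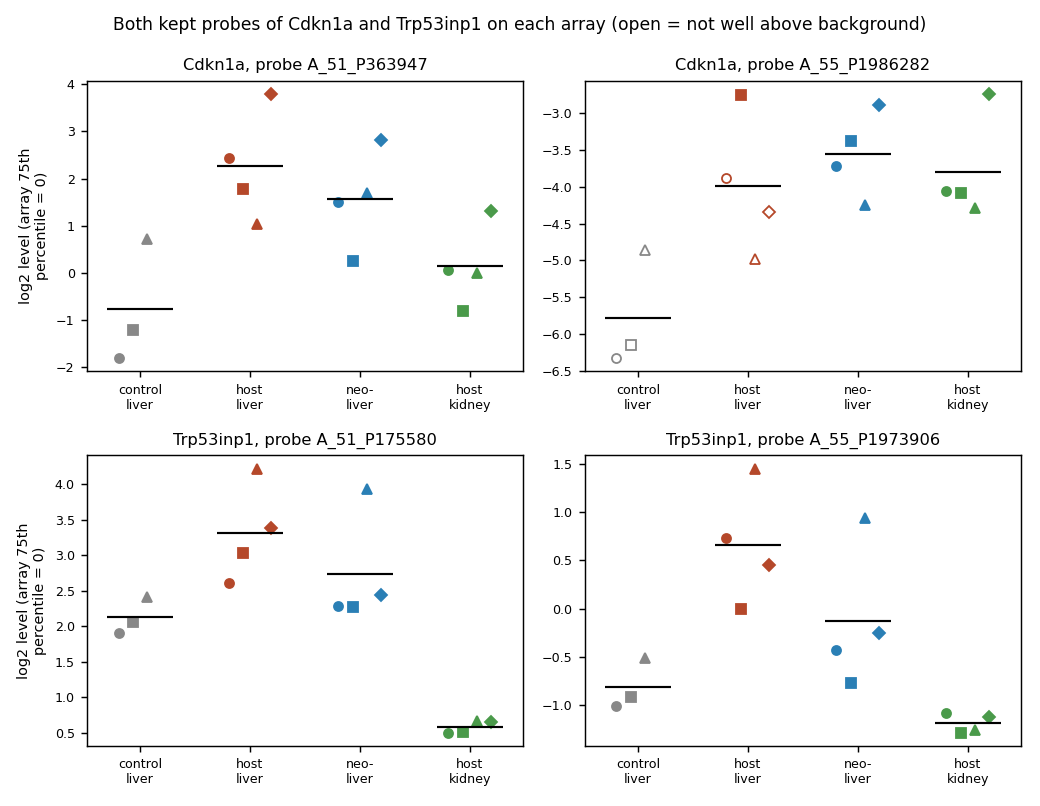
Log2 level (vertical axis, array 75th percentile = 0, a separate scale per panel) of both kept probes of Cdkn1a and of Trp53inp1 on each array, open where not well above background, with the group mean as a line. The second Cdkn1a probe is open, below background, in 3 of 3 control livers and 3 of 4 host livers, where the first is filled throughout, while the Trp53inp1 probes keep the same sign in all 6 comparisons.

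Cdkn2a was measured in host liver and in neo-liver and was not above background in control liver. Its probe was not well above background in the 3 control livers, where it read -6.70, -4.98 and -6.34. It read 0.26, -0.78, -0.14 and -0.90 in host livers 1 to 4 and -1.52, -1.93, -1.43 and -1.27 in neo-livers 1 to 4, with no overlap among these 3 groups. Host kidneys, at -4.77, -5.69, -5.44 and -4.36, were low but above background on 4 of 4 arrays. Against the lowest signal called above background, Cdkn2a was at least 15.8-fold higher in host liver than in control liver (adjusted p = 5.11e-06) and at least 7.15-fold higher in neo-liver (adjusted p = 1.95e-06). Host liver exceeded host kidney by 4.67 ± 0.39 (25.5-fold, adjusted p = 1.26e-07) and neo-liver exceeded it by 3.53 ± 0.39 (11.5-fold, adjusted p = 5.85e-06). Neo-liver differed from host liver by -1.15 ± 0.39 (adjusted p = 0.0267). That last difference was not called without host liver 1 (adjusted p = 0.0747), host liver 3 (0.0635) or neo-liver 2 (0.0699), nor after the kidney share was subtracted (-0.38, adjusted p = 0.533). Another background correction (normexp, which adds an offset to dim signals) brought the fitted difference from control liver from 4.47 to 1.42 for neo-liver and from 5.62 to 2.37 for host liver, both still called. Host kidney against control liver has no fold, since its mean lay below the lowest level called above background in control liver. Its fitted value (0.94, adjusted p = 0.0618) was called without control liver 2 (adjusted p = 0.00568) or host kidney 2 (0.0345) and changed sign with normexp (-0.46, not called). Whether the measured probe reads the transcript of the kinase inhibitor, that of ARF or both was not determined, since the probe sequences were not used here. A second probe of the same accession was above background on 0 of 15 arrays.

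Btg2, an antiproliferative gene induced early by p53 and by growth signals, was higher in each of the 3 host tissues than in control liver and varied widely within them. Control livers read -1.14, -0.77 and -1.15, and host livers 4.36, 0.83, 1.41 and 2.06. Neo-livers read 2.70, 0.42, 1.67 and 1.83 and host kidneys 2.41, 0.65, 1.64 and 1.99. All 12 host samples lay above the 3 control livers, and within each host tissue replicate 1 was highest and replicate 2 lowest. The differences from control liver were 3.19 ± 0.72 for host liver (adjusted p = 0.00687), 2.67 ± 0.72 for neo-liver (adjusted p = 0.00729) and 2.69 ± 0.72 for host kidney (adjusted p = 0.00454). The host tissues did not differ from each other by the test, with 95% intervals of -1.94 to 0.92 for neo-liver against host liver and -1.45 to 1.41 for neo-liver against host kidney. After subtraction of the kidney share the neo-liver difference from control liver was 1.88 (adjusted p = 0.269). In neo-liver 2 that subtraction removed the whole Btg2 signal, and the array was set to the lowest signal called above background. The signal removed was a share of the mean over all host kidneys, whereas host kidney 2 was the lowest for Btg2 (0.65). Subtraction of the kidney of the same number was not tried.

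Gdf15, a secreted stress cytokine of the TGF-beta family, formed a graded series with the least spread in host liver. Control livers read 0.08, 0.52 and 0.51 and host livers 5.63, 5.31, 5.39 and 5.38. Neo-livers read 4.82, 4.36, 4.84 and 4.76, and host kidneys 3.44, 1.40, 2.60 and 3.34. No 2 of these groups overlapped, and the order was host liver, neo-liver, host kidney, control liver. Against control liver the difference was 5.06 ± 0.37 for host liver (33.3-fold, adjusted p = 4.9e-06), 4.32 ± 0.37 for neo-liver (20.0-fold, adjusted p = 8.17e-07) and 2.33 ± 0.37 for host kidney (5.01-fold, adjusted p = 7.94e-05). Host kidney was exceeded by host liver by 2.73 ± 0.34 (adjusted p = 7.84e-06) and by neo-liver by 2.00 ± 0.34 (adjusted p = 0.000279). The neighbours host liver and neo-liver did not differ by the test (-0.73 ± 0.34, adjusted p = 0.0917), although the value passed with the mouse as a random block (adjusted p = 0.0363), with median centring of the arrays (-0.93, adjusted p = 0.0318) and in a fit of those groups alone (adjusted p = 0.00733). After subtraction of the kidney share it was -0.07 (adjusted p = 0.911).

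Phlda3 competes with the kinase Akt for membrane lipids and so restrains survival signalling. It was higher in each of the 3 host tissues than in control liver. Control livers were tightly grouped at -1.14, -1.09 and -1.10. Host livers read 1.81, 2.99, 0.94 and 2.46, neo-livers 1.97, 1.84, 1.93 and 2.56, and host kidneys 1.52, 1.43, 1.11 and 2.16. Every host sample lay above every control liver, and the host tissues overlapped each other. The differences from control liver were 3.16 ± 0.38 for host liver (8.93-fold, adjusted p = 0.000168), 3.18 ± 0.38 for neo-liver (9.09-fold, adjusted p = 1.94e-05) and 2.67 ± 0.38 for host kidney (6.35-fold, adjusted p = 3.33e-05). Neo-liver against host liver was 0.02 with a 95% interval of -0.74 to 0.79, an interval that leaves room for a difference in either direction. Host liver against host kidney (0.49, adjusted p = 0.23) was called without host liver 3 (0.86, adjusted p = 0.0171), and neo-liver against host kidney (0.52, adjusted p = 0.239) after subtraction of the kidney share (0.94, adjusted p = 0.0427).

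Bax, the BCL2-family protein that permeabilises the mitochondrial membrane in apoptosis, moved by less but with little spread. Control livers read 2.15, 2.24 and 2.33, host livers 3.26, 3.31, 3.33 and 3.70, and neo-livers 2.98, 2.81, 3.02 and 3.0. Host kidneys read 2.96, 2.40, 2.47 and 2.75. The control livers, neo-livers and host livers formed 3 groups without overlap. Host liver was 1.17 ± 0.15 above control liver (2.24-fold, adjusted p = 0.000202) and neo-liver 0.72 ± 0.15 (1.64-fold, adjusted p = 0.00118). Neo-liver differed from host liver by -0.45 ± 0.13 (adjusted p = 0.0146), a call lost with quantile normalization (-0.15, adjusted p = 0.429) and with the kidney share subtracted (-0.08, adjusted p = 0.727). Host liver also lay above host kidney by 0.76 ± 0.13 (adjusted p = 0.000196). Neo-liver against host kidney (0.31, adjusted p = 0.0695) was called with the mouse as a random block (adjusted p = 0.0272) but not as a fixed one, and without host kidney 1 (0.41, adjusted p = 0.0185). Host kidney against control liver (0.41, adjusted p = 0.0241) was not called without control liver 1 (0.0843), control liver 2 (0.0577), host kidney 1 (0.0709) or host kidney 4 (0.0587).

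Trp53inp1, a stress-induced protein that promotes p53 activity, autophagy and cell death, was the member that was lower in host kidney than in control liver. Control livers read 1.91, 2.06 and 2.42 and host kidneys 0.51, 0.51, 0.67 and 0.66, a difference of -1.54 ± 0.40 (adjusted p = 0.00379). Host livers read 2.61, 3.04, 4.22 and 3.38 and neo-livers 2.28, 2.27, 3.94 and 2.44. Replicate 3 was highest in each of the host tissues. Host liver exceeded host kidney by 2.73 ± 0.37 (adjusted p = 1.69e-05) and neo-liver exceeded it by 2.15 ± 0.37 (adjusted p = 0.000292). Host liver was 1.19 ± 0.40 above control liver (adjusted p = 0.0454), close to the threshold. Each of the 3 control livers left out in turn ended that call (adjusted p 0.0707 to 0.143), as did leaving out host liver 3 (0.112) or 4 (0.0853). Normexp (0.0606), quantile normalization (0.0614), no filter on dim probes (0.0609), the slide as a random block (0.0567) and a fit of those groups alone (0.068) ended it too. Neo-liver did not differ from control liver by the test (0.61, adjusted p = 0.223) but did after subtraction of the kidney share (1.29, adjusted p = 0.0188), and it was below host liver without neo-liver 3 (-0.98, adjusted p = 0.0138). A second Trp53inp1 probe gave the same sign in all 6 comparisons. It gave a larger difference for host liver against control liver (1.47, adjusted p = 0.0123) and a smaller one for host kidney against control liver (-0.38, adjusted p = 0.385).

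Mdm2, the ubiquitin ligase that p53 induces and that degrades p53 in turn, was higher in host liver and lower in neo-liver than in control liver. Control livers read 3.41, 3.31 and 3.40, host livers 3.87, 3.99, 4.06 and 3.75, and neo-livers 2.95, 2.92, 3.13 and 3.03. Host kidneys read 3.83, 3.43, 3.73 and 3.84. Host livers lay above the control livers and neo-livers below them, with no overlap. Host liver was 0.54 ± 0.12 above control liver (1.46-fold, adjusted p = 0.00572) and neo-liver differed from control liver by -0.36 ± 0.12 (adjusted p = 0.0207). Neo-liver differed from host liver by -0.91 ± 0.11 (1.87-fold, adjusted p = 2.48e-05) and from host kidney by -0.70 ± 0.11 (adjusted p = 0.000129). Host liver against host kidney took either sign by the scaling, at 0.20 (adjusted p = 0.11) as reported, 0.42 (adjusted p = 0.00771) with median centring and -0.31 (adjusted p = 0.0235) with quantile normalization. The fall of neo-liver against control liver was not called with quantile normalization (-0.08, adjusted p = 0.62), with normexp (-0.28, adjusted p = 0.073), or without control liver 1 (0.0689) or 3 (0.0615). Host kidney against control liver (0.34, adjusted p = 0.0219) was not called without control liver 2 (0.0765), host kidney 1 (0.0559) or host kidney 4 (0.0618).

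Ccng1, cyclin G1, a p53 target that works with a phosphatase on Mdm2, was highest in host kidney. Host kidneys read 3.17, 3.05, 2.92 and 3.25 and control livers 0.99, 0.94 and 1.01, a difference of 2.12 ± 0.18 (4.34-fold, adjusted p = 1.31e-07). Host livers read 1.33, 1.67, 1.08 and 1.42 and neo-livers 1.63, 2.10, 1.53 and 2.22, so neo-liver lay between liver and kidney. From host kidney, host liver differed by -1.72 ± 0.16 (adjusted p = 4.65e-07) and neo-liver by -1.23 ± 0.16 (adjusted p = 3.21e-05). Neo-livers 2 and 4, the highest for Ccng1, were also those with the highest kidney share (47.2% and 34.3%). Neo-liver exceeded control liver by 0.89 ± 0.18 (adjusted p = 0.000953) and host liver by 0.50 ± 0.16 (adjusted p = 0.023, overlapping groups). After subtraction of the kidney share these differences were -0.39 (adjusted p = 0.497) and -0.79 (adjusted p = 0.167). The call against host liver was also lost without host liver 3 (0.0708), neo-liver 2 (0.0663) or neo-liver 4 (0.0746), with median centring (0.30, adjusted p = 0.126) and in a fit of the groups alone (0.0889). Host liver against control liver (0.40, adjusted p = 0.118) did not pass, although the groups did not overlap, and passed with median centring (0.54, adjusted p = 0.0352). Eda2r, a p53-induced receptor of the tumour necrosis factor family, was above background on 0 of 15 arrays with either of its 2 probes and has only that bound.

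**Figure D3:**
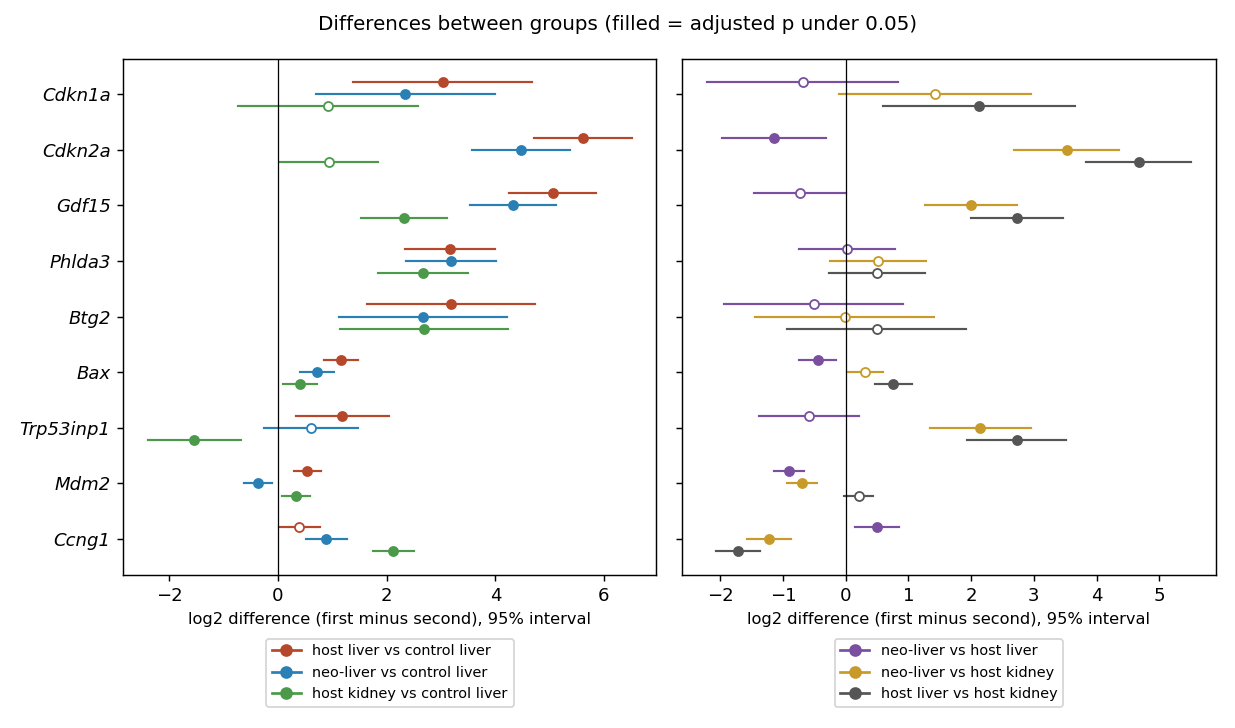
Log2 difference (horizontal axis, first minus second group) with its 95% interval for the 9 measured genes, against control liver in the left panel and among the host tissues in the right panel, filled where adjusted p was under 0.05. Gdf15 lies at 5.06 in host liver against control liver, the values of Cdkn2a against control liver are fitted against a probe below background and have only the bounds given in the text, and Mdm2 and Ccng1 carry opposite signs in neo-liver against host liver (-0.91 and 0.50).

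Host kidney was high for some members and low for others, so subtracting the kidney share moved their neo-liver values unequally. When each neo-liver array had its kidney share of the mean host kidney signal removed, neo-liver against control liver gave 4.99 for Gdf15, 3.61 for Phlda3, 2.81 for Cdkn1a and 1.08 for Bax, all called. Cdkn2a was also called, with control livers that give only a bound. Mdm2 was -0.75, also called. Btg2 and Ccng1, the latter high in host kidney, lost their calls, with the values given above. The subtraction stopped at the lowest signal called above background on the array. In neo-liver 2 the share to be removed exceeded the Btg2 signal, so Btg2 was set to that lowest signal there. The Btg2 value after subtraction therefore depends on that array and on the use of the mean host kidney signal, since host kidney 2 was the lowest for Btg2. Most of the Ccng1 signal of the same array was removed as well. Against host liver the subtraction left 1 of the 9 genes called, Mdm2 at -1.29. In bulk tissue, fewer cells of a type and less RNA per cell cannot be told apart, so these values are not levels in hepatocytes. Leukocyte markers (10 measured) summed to 91.3 to 506 in neo-liver, 82.4 to 247 in host liver, 64.4 to 89.9 in control liver and 58 to 108 in host kidney. The 8 stellate and matrix-producing cell markers summed to 18.5 to 37.9, 7.39 to 26.3, 5.49 to 7.17 and 8.58 to 15.9 in the same order. Against control liver, 4 of 10 leukocyte markers and 4 of 8 stellate markers were higher in neo-liver, beside 20.4% of all genes. In host liver 3 and 1 were higher, beside 13.4%, so the stellate count is near the background. The host liver leukocyte count was 1 without control liver 1, 2 or 3 or without host liver 1, 3 or 4. The host liver stellate count was 0 to 3 over the alternatives. The part of these cells in the members' differences was not tested.

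**Figure D4:**
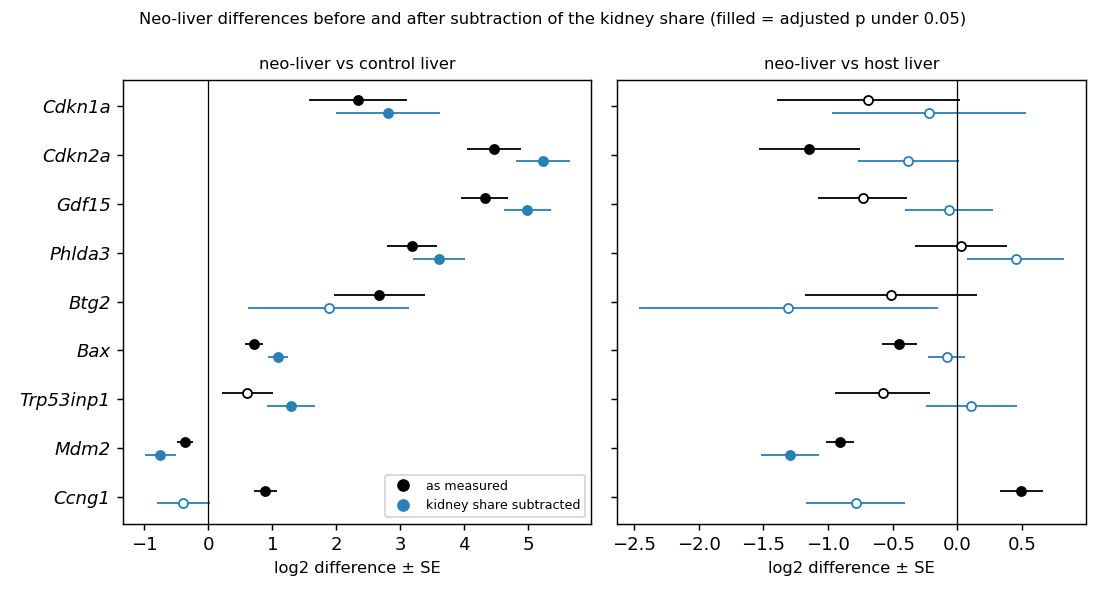
Log2 difference ± SE (horizontal axis) of neo-liver from control liver (left) and from host liver (right) for the 9 measured genes, as measured and after the kidney share was subtracted, filled where adjusted p was under 0.05. Gdf15 moves from 4.32 to 4.99 against control liver, Cdkn2a is fitted there against a probe below background, and Ccng1 changes sign (0.89 to -0.39, the latter not called).

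Trp53 itself, which encodes p53 and is regulated mostly at the protein level, was higher in host liver than in control liver. The difference was 0.60 ± 0.14 (adjusted p = 0.00929), while neo-liver (0.17, adjusted p = 0.345) did not pass as measured and did after subtraction of the kidney share (0.60, adjusted p = 0.0101). Host kidney (-0.32, adjusted p = 0.0641) did not pass either, but was called lower with the mouse as a random block (adjusted p = 0.0376), with normexp (-0.41, adjusted p = 0.00422), with quantile normalization (-0.43, adjusted p = 0.0172) and without host kidney 3 (adjusted p = 0.0382). It was lower in neo-liver than in host liver (-0.43 ± 0.13, adjusted p = 0.0166), a difference that was 0.0020 after subtraction of the kidney share and was not called without host liver 3 (adjusted p = 0.0522) or in a fit of those groups alone (0.0543). Among 15 p53 regulators, 4 were higher and 1 lower in host liver than in control liver, beside 13.4% and 11.2% of all genes. Of these Trp53bp1, a DNA damage adaptor, rose by 0.87 ± 0.11 (adjusted p = 0.000285). In neo-liver 1 was higher and 5 were lower, where 20.4% and 29.8% of all genes were, so the lower count is near the background. The lower genes included the ubiquitin ligase gene Cop1 (-0.57 ± 0.11) and the checkpoint kinase gene Chek1. Chek1 was below background in 4 of 4 neo-livers and above it in 2 of 3 control livers, so its fold has no bound. Without any 1 of the 3 control livers, or without neo-liver 1, the lower count was 2, and with the kidney share subtracted 2 were higher and 0 lower.

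The other p53 targets moved in both directions. Of 26 tested, 5 were higher and 1 lower in host liver than in control liver, beside 13.4% and 11.2% of all genes, with a median of 0.34. Tnfrsf10b, a death receptor, was 1.27 ± 0.22 higher (adjusted p = 0.00173) and Apaf1, the core of the apoptosome, 0.72 ± 0.14 (adjusted p = 0.00299). Psrc1 was also called higher (adjusted p = 0.0281). It has no bound there, since it was above background on 2 of 4 host livers and 0 of 3 control livers. Ei24 was the gene lower there (-0.62 ± 0.21). The higher count was 3 without control liver 2 or 3, 9 without host liver 3, 10 with median centring and 3 in a fit of those groups alone. In neo-liver 9 were higher and 4 lower, beside 20.4% and 29.8% of all genes, with a median of 0.15, and 6 and 2 after subtraction of the kidney share. The adenylate kinase gene Ak1 rose by 3.78 ± 0.38, Pmaip1, which encodes the death protein Noxa, by 2.48 ± 0.34, and Psrc1 was at least 2.28-fold higher. Host kidney was higher still for Ak1 and Pmaip1, at 5.27 and 3.56 above control liver, and neo-liver differed from it by -1.49 and -1.09, both called. Ei24 (-1.43), Sulf2 (-1.02) and Tigar (-0.76) were lower. Neo-liver against host liver gave 5 higher and 7 lower of the 26, near the 17.1% and 31.5% of all genes, with Ak1 at 2.70 and Sulf2 at -1.36, and after subtraction of the kidney share 2 higher and 1 lower.

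Other inhibitors of the cell cycle rose in part with Cdkn1a and Cdkn2a, and so did genes of cell division. Of 9 other CDK inhibitors and pocket proteins, 4 were higher and 0 lower in host liver than in control liver, and 6 and 0 in neo-liver, beside 13.4% and 20.4% of all genes higher. Cdkn3, a phosphatase gene, was at least 9.03-fold higher in host liver and at least 4.68-fold in neo-liver. Cdkn2b, the neighbour of Cdkn2a, rose by 1.99 ± 0.38 in neo-liver (adjusted p = 0.000807) and Cdkn1c by 1.32 ± 0.27. Host kidney was higher still for both, at 2.97 and 2.51 above control liver, and neo-liver differed from it by -0.98 and -1.19, both called. Against host liver 3 of the 9 were higher in neo-liver, beside 17.1% of all genes, and 0 after subtraction of the kidney share. The host liver count was 1 or 2 without control liver 2, control liver 3, host liver 2, host liver 3 or host liver 4. Of 19 cell division genes, 12 were higher and 0 lower in host liver than in control liver, and 10 and 0 in neo-liver, beside the same shares of all genes. Ccnb1, a mitotic cyclin, was at least 8.97-fold higher in neo-liver, and Top2a, which untangles chromosomes, at least 4.08-fold. In host liver both were called higher, with fitted log2 differences of 4.53 and 3.92. They have no bound there, since each was above background on 3 of 4 host livers and 0 of 3 control livers. Leaving out any 1 control liver brought the host liver count to 6 or 7, and a fit of those groups alone to 4. At an unadjusted p under 0.05 the counts lower in these 2 lists were also 0. With normexp the neo-liver count was 4, and after subtraction of the kidney share 17. Between neo-liver and host liver limma called 0 of the 19, and 1 was lower at an unadjusted p under 0.05. With the mouse as a block, random or fixed, with normexp or median centring, or without host liver 4, neo-liver 1 or neo-liver 2, 1 was called lower.

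Many secreted factors of the senescence-associated phenotype were higher in neo-liver than in control liver. Of 18 tested of 23 listed, 11 were higher and 1 lower in neo-liver than in control liver, beside 20.4% and 29.8% of all genes, and 5 and 2 in host liver, beside 13.4% and 11.2%. Plau, the urokinase gene, was at least 28.6-fold higher in neo-liver, and Timp1, an inhibitor of matrix proteases, at least 18.0-fold. In host liver the chemokine gene Ccl2 rose by 2.75 ± 0.73 (adjusted p = 0.0157) and Timp1 at least 5.46-fold, while Igfbp7 and Igfbp5 were both at -2.06. The host liver count was 3 higher and 1 lower without control liver 1 or 2. Neo-liver against host liver gave 7 higher and 1 lower, beside 17.1% and 31.5% of all genes, led by Plau at least 21.6-fold, and 3 and 0 after subtraction of the kidney share. Plau and Igfbp7 were lower in neo-liver than in host kidney (-2.79 and -1.35). Il6, Cxcl2, Ccl7, Mmp3 and Areg were not above background throughout any group and were not tested. Of 6 senescence state genes, 2 were higher in host liver and 3 in neo-liver than in control liver, beside 13.4% and 20.4% of all genes. Hmgb2, a chromatin protein gene that falls in senescent cells in culture, was higher by 1.26 ± 0.30 and 1.64 ± 0.30, and Glb1, the lysosomal galactosidase gene, by 0.96 ± 0.22 in neo-liver. Since this list includes genes that fall in senescent cells, its count of higher genes gives no direction for senescence. Trp53 and Cdkn2b belong to it and were also counted above, among the p53 regulators and the CDK inhibitors. Of 9 BCL2 family genes, 3 were higher in host liver and 4 in neo-liver (1 after subtraction of the kidney share), beside the same shares, among them Bik (1.63 and 1.40) and Bok (0.98 and 1.65).

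**Figure D5:**
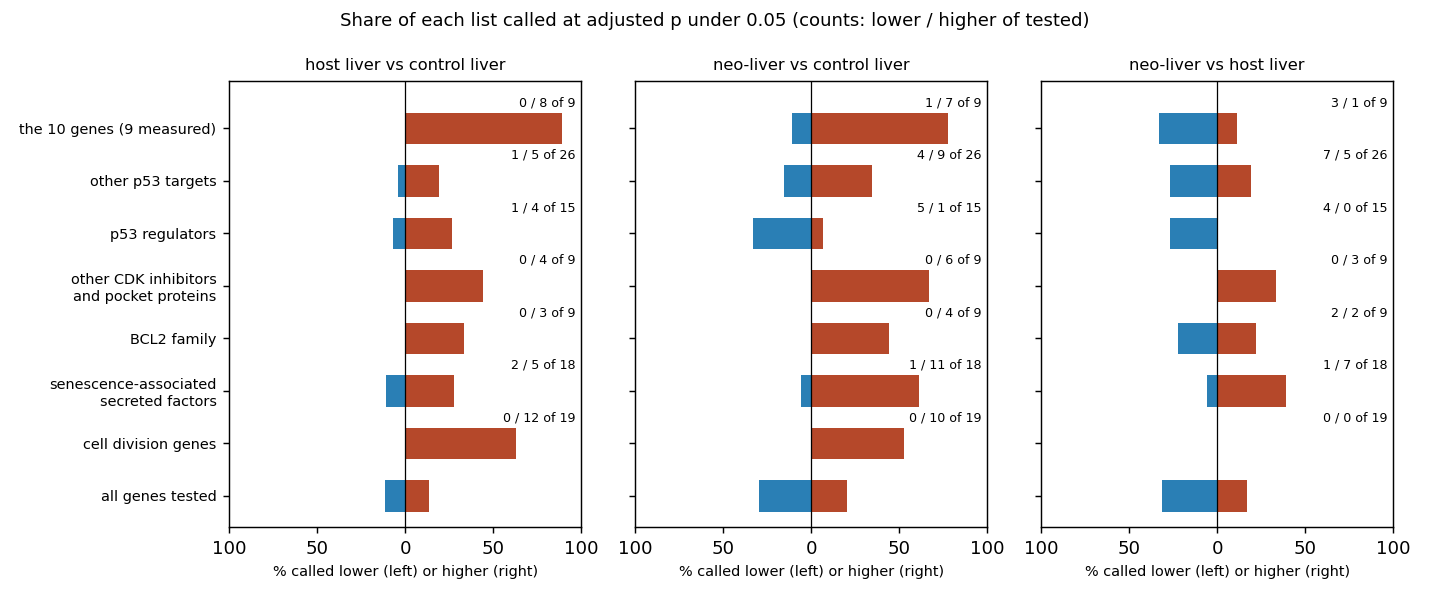
Percent of each gene list called lower (left of 0) or higher (right of 0) in 3 comparisons, with the counts of lower and higher genes and the number tested, and all 15622 genes in the bottom bar. In host liver against control liver 8 of the 9 members and 12 of 19 cell division genes were higher, beside 13.4% of all genes.

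Some of the 9 genes had the same replicate number at an extreme in every host tissue. Same-numbered host tissues correlated across all genes (0.179 to 0.577), and a number was read as a mouse for that reason, although the reported fit held no block for it. The share of all genes with such an extreme was not counted, so whether the pattern is particular to these genes is not known. Cdkn1a was highest in replicate 4 of host kidney, host liver and neo-liver. Btg2 was highest in replicate 1 and lowest in replicate 2 of each of these tissues, Trp53inp1 highest in replicate 3, Gdf15 lowest in replicate 2 and Ccng1 lowest in replicate 3. For Cdkn2a, Phlda3, Mdm2 and Bax no replicate was highest, and none lowest, in all 3 tissues.

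The genes whose pattern over the 15 arrays came closest to each member were found by the root mean square (RMS) difference of log2 profiles, each centred on its own mean. Cdkn1a lay nearest to Oas1a, Slc2a6 and Oas1f, at 0.711, 0.748 and 0.801, against its own RMS deviation of 1.49. Cdkn2a lay nearest to Gdf15 (0.856), then to Ddias (1.07) and Cenpi (1.26), with an own deviation of 2.36. Gdf15 had Jun as its nearest gene (0.805), followed by Cdkn2a (0.856) and Nxpe5 (0.895), with an own deviation of 1.92. Btg2 lay nearest to Junb (0.628), Jun (0.65) and Slc9a7 (0.655), with an own deviation of 1.46. The nearest gene was Plxna3 for Phlda3 (0.566), Prelid2 for Trp53inp1 (0.344), Maged1 for Bax (0.179), Syne2 for Ccng1 (0.17) and Numa1 for Mdm2 (0.157). These are descriptions over arrays that share tissues and mice, with no test.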

How the data were processed

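RNA of 15 samples was labelled with Cy3 for one-colour Agilent arrays. Per the file headers, the deposited scanner files hold intensity values from Agilent Feature Extraction 10.10.1.1, corrected for background on each array without any scaling across arrays. The authors' deposited log2 table matched these signals, within 0.01 and up to 1 constant per array, for at least 99.78% of probes and was an alternative. Its column medians were -3.73 to -3.35. The software that made it is not named in the sources used here.

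Spots of a probe were averaged, without control and outlier spots, and scaled to the array's 75th percentile. Probes well above background throughout at least 1 group were kept (34992 of 55681), 20391 of them with a RefSeq symbol, and a gene was its brightest kept probe on average. One limma fit held all arrays (R 4.3.3, with limma 3.58.1, data.table version 1.17.8 and statmod 1.5.0), with two-sided moderated tests and Benjamini-Hochberg adjustment over the genes of each of 6 comparisons. The fit was tested on simulated data. A fold given as "at least" is set against the lowest signal called above background on each array of the dim group, or the probe's own if higher. The kidney share is the median linear signal of kidney markers (8-fold or more above control liver in host kidney) over the control liver mean, in percent of host kidney. Precision is limited by the array number and by dim signals.

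The alternatives changed the background correction, scaling, filter, probe rule, block or samples, or subtracted the kidney share. Named genes were the members, Trp53, up to 3 called genes per direction of a list (some are left out) and the nearest profiles. Members and lists were chosen with earlier results of these data known.

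Deviations of same-numbered host tissues from their group means correlated at 0.179 to 0.577 across genes, in 12 of 12 cases above those of other numbers. A number was therefore treated as a mouse, but only in the alternatives with a block. The reported fit held no block, so its p-values ignore this pairing. Control livers gave -0.125 to 0.0655. Where samples are not separate animals, p-values measure only the spread between samples. Gene symbols came from RefSeq on GRCm38.p6 and the arrays were annotated on mm9, so positions are given for the RefSeq promoter windows alone.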

Additional observations from a re-analysis of the deposited data

Results flagged for a closer look

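In 3 of 27 groups of 4 arrays looked at, 1 array stood apart from the other 3, by a gap to its nearest neighbour that, as a share of the group's range, exceeded Dixon's 95% critical value, where chance alone gives about 1 in 20. Gdf15 in neo-liver replicate 2 read 4.36 beside a nearest value of 4.76 (gap 0.833 of the range). That array also had the highest kidney share, 47.2%, whose part in the value was not tested. Bax in host liver replicate 4 read 3.70 beside 3.33 (0.852). Trp53inp1 in neo-liver replicate 3 read 3.94 beside 2.44 (0.896), and replicate 3 was also the highest host liver and host kidney for that gene.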

How the results depend on the processing

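Of the values of the 9 measured genes under alternatives, 934 of 999 lay on the same side of the threshold as reported, 43 were no longer called, 19 became called and 3, called as reported or under the alternative, changed direction. Among the 934, 12 changed sign without being called in either setting, for Btg2, Phlda3, Cdkn2a and Trp53inp1. The 3 are Ccng1 in neo-liver against control liver (-0.39) and against host liver (-0.79) with the kidney share subtracted, and Mdm2 in host liver against host kidney, 0.20 as reported, at -0.31 (adjusted p = 0.0235) with quantile normalization. Trp53 in neo-liver against host liver, -0.43 as reported, was 0.0020 with the kidney share subtracted. With the kidney share subtracted, 8 genes differed between neo-liver and host kidney in place of 5, and 1 between neo-liver and host liver in place of 4. Leaving out single arrays gave 2 to 5 genes for neo-liver against host liver (2 without host liver 3 or neo-liver 2). It gave 5 to 6 for neo-liver against host kidney and 5 to 7 for host liver against host kidney. Against control liver it gave 6 to 8 for host liver, 6 to 8 for neo-liver and 5 to 8 for host kidney. With the mouse as a replicate block, neo-liver against host kidney gave 7 genes (random) or 6 (fixed), neo-liver against host liver 5 or 4 and host liver against host kidney 6 or 6, and against control liver 8, 8 and 7 for host liver, neo-liver and host kidney. The calls that the block changed are those of Cdkn1a, Bax and Gdf15 given with those genes, and it changed no other call of these 9. Scalings moved the median of all genes by over 0.1 for median centring (0.145, 0.218 and -0.195 for host liver against control liver, host liver against host kidney and neo-liver against host liver), for quantile normalization (-0.11 for host liver against host kidney) and for the subtraction (0.25). Dim probes limit Cdkn2a in control liver and Eda2r throughout.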
